A study of Mus musculus with 4 samples.

Results

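The glycolysis and pyruvate use genes are 34 genes, chosen by name from the pathway, that encode the enzymes of glycolysis, lactate dehydrogenase and the lactate carriers, the pyruvate dehydrogenase (PDH) complex with its regulators, the mitochondrial pyruvate carrier and the transcription factor gene Hif1a. All 34 were matched among the 35275 gene identifiers of the deposited table, of which 21484 had a count in at least 1 library. RNA sequencing was done on natural killer (NK) cells, lymphocytes of the innate immune system that kill tumour cells, from the spleens of C57BL/6 wild type (WT) and Irf4-/- mice. NK cells were enriched with a kit and then sorted as CD3-negative, NK1.1-positive cells. Cells of the mouse melanoma line B16-F10 had been given into a vein of the injected mice 20 days earlier, and the control mice had no injection. The 4 groups, WT control, WT injected, Irf4-/- control and Irf4-/- injected, had 1 library each, and values without a group name below are in this order. The labels give neither the age of the mice, nor how many mice were behind a library, nor which part of Irf4 the knockout allele lacks.

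Glycolysis splits glucose into pyruvate in the cytosol and yields ATP and NADH. Pyruvate is then either reduced to lactate by lactate dehydrogenase and exported by monocarboxylate transporters, or carried into mitochondria, where the PDH complex turns it into acetyl-CoA. PDH kinases switch that complex off and PDH phosphatases switch it on, and NK cells are known to raise glycolysis when they are activated by cytokines.

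Total counts per library lay between 15878159 and 21104881. Irf4, the targeted gene, which encodes a transcription factor, had 93, 57, 188 and 236 counts, so it was higher in the libraries labelled Irf4-/-. Counts per gene cannot show whether those reads come from outside the deleted part. Irf4-/- therefore stands throughout for a library that carries this label, and each genotype direction rests on the labels. WT injected stood apart, being the highest library for 34.1% and the lowest for 34.4% of 9674 genes with a 4-library mean of 5 CPM or more (CPM being counts scaled to a common library size). NK cell markers summed to between 11682 and 13769 CPM over 10 genes, and T cell markers to between 47.8 and 55.8 CPM over 8 genes. Single NK markers were less even than their sum. Gzma alone was at 3716, 3056, 4699 and 4066 CPM, Tbx21 at 505, 338, 486 and 545, and Gzmb at 461, 450, 541 and 354. Of the 6 neutrophil markers, Ly6g, Retnlg and Mpo had 0 counts in each library. The 10 monocyte and macrophage markers, none of them at 0, summed to 38.7, 89.0, 59.5 and 72.4 CPM, and the 7 erythroid markers to 38.0, 19.1, 45.3 and 109 CPM. B cell markers summed to between 263 and 335 CPM over 8 genes and platelet markers to between 45.7 and 74.3 CPM over 6 genes. Of the B cell markers Cd74, at 76.2, 59.7, 100 and 98.3 CPM, rose with genotype in the additive edgeR test described below. Its log2 difference was 0.55 (SE 0.106, edgeR adjusted p = 0.0283), and it passed in limma-voom but not in DESeq2. In such bulk samples fewer cells of a type and less RNA per cell cannot be told apart.

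The pathway was highly expressed and its summed level was nearly level across the libraries. Together the 34 genes took 0.376%, 0.367%, 0.381% and 0.391% of the counts. By FPKM, the deposited level per gene length, the sums were 1715, 1654, 1723 and 1764. The most abundant member per length was Gapdh, the enzyme that couples glyceraldehyde phosphate oxidation to NADH formation, at 317, 292, 322 and 328 FPKM, which placed it 180th of the 21484 genes with a count. Next came Eno1, an enolase, at 242, 252, 223 and 220 FPKM, Pkm, the pyruvate kinase that makes pyruvate and ATP, at 200, 192, 215 and 227, and Ldha, a lactate dehydrogenase subunit, at 198, 158, 208 and 206. At the other end, Ldhb, the other lactate dehydrogenase subunit, had 3, 8, 2 and 6 counts, and the PDH kinase gene Pdk4 had 2, 1, 4 and 2, so for both the order of the libraries was not detectable at this depth. Of the 34 genes, 29 reached a 4-library mean of 5 CPM, and Hk2, Pfkfb4, Aldoc, Ldhb and Pdk4 did not. The members nearest to that limit were Mpc1, with library levels between 5.61 and 8.36 CPM, just inside it, and Hk2, between 3.61 and 4.96 CPM, just outside.

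**Figure D1:**
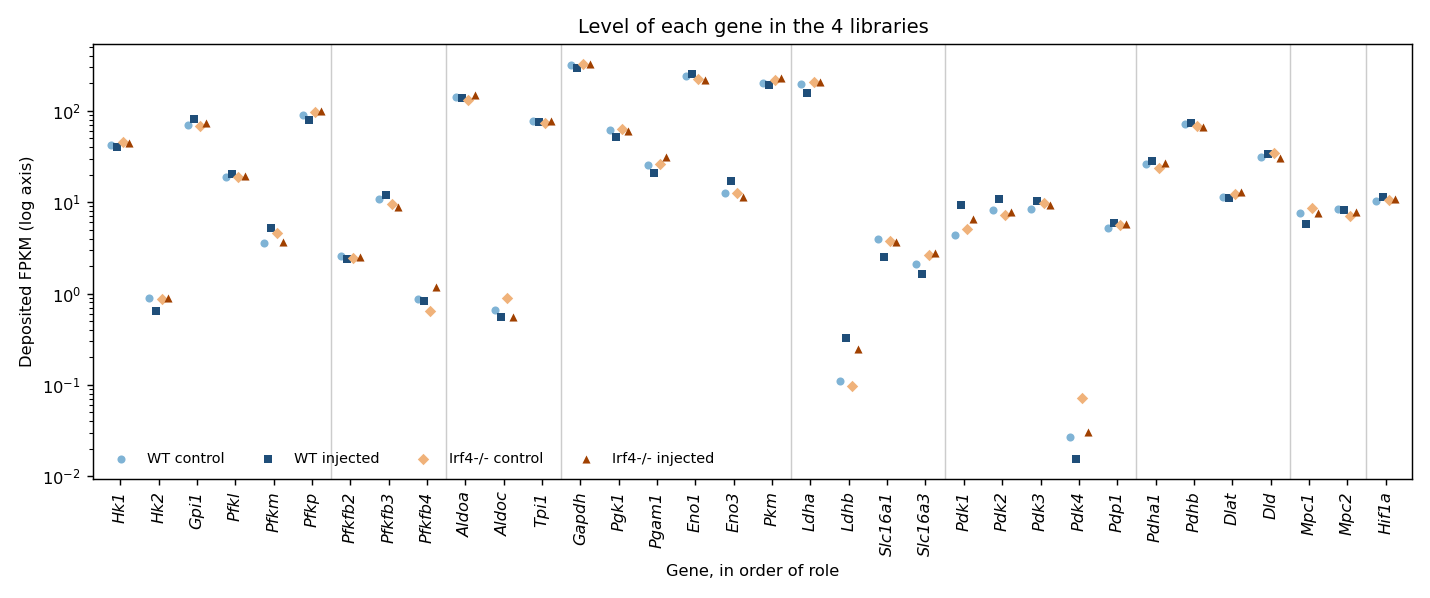
Deposited FPKM, a level per gene length, of each of the 34 genes on a log axis, with 1 symbol for each of the 4 libraries and grey lines between role groups. Gapdh, Eno1, Pkm and Ldha sit at the top, between 158 and 328 FPKM, and Ldhb and Pdk4 lie below 0.33 FPKM in all libraries.

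Most steps of the pathway were served by 1 main isozyme, and that isozyme was the same in every library. Hk1, the hexokinase that traps glucose as glucose 6-phosphate, held 91.1%, 86.1%, 89.2% and 84.7% of the summed FPKM of Hk1, Hk2 and Hk3. The remainder was mainly Hk3, at 6.90%, 12.5%, 9.09% and 13.6%, so the Hk3 share was higher in both injected libraries than in both controls. The monocyte and macrophage marker sum was also higher in both injected libraries, although its marker Lyz2 went the other way, at 12.1, 4.80, 18.7 and 8.21 CPM. The part of other cells in the Hk3 share was not tested. Hk2, the hexokinase known to be induced in activated lymphocytes, stayed between 1.39% and 1.95%. Pfkp, the platelet type phosphofructokinase, held between 75.9% and 81.1% of the phosphofructokinase FPKM, the lowest share being in WT injected. Aldoa held at least 99.3% of aldolase FPKM, Eno1 between 93.6% and 95.1% of enolase FPKM, and Ldha at least 99.8% of lactate dehydrogenase FPKM. The PDH kinases were the family without a leading isozyme: Pdk3 held 40.3%, 34.0%, 43.9% and 39.2%, Pdk2 38.9%, 35.6%, 32.5% and 33.1%, and Pdk1 20.7%, 30.3%, 23.3% and 27.6%. Pdk1 thus had its largest share in WT injected and its second largest in Irf4-/- injected. Among lactate transporter family genes, Slc16a6 held between 57.3% and 64.6% of the FPKM of Slc16a1, Slc16a3, Slc16a6 and Slc16a7, above Slc16a1 at 19.0% to 23.2% and Slc16a3 at 11.8% to 17.7%. The protein of Slc16a6, which is not a member, has been described as a ketone body carrier.

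**Figure D2:**
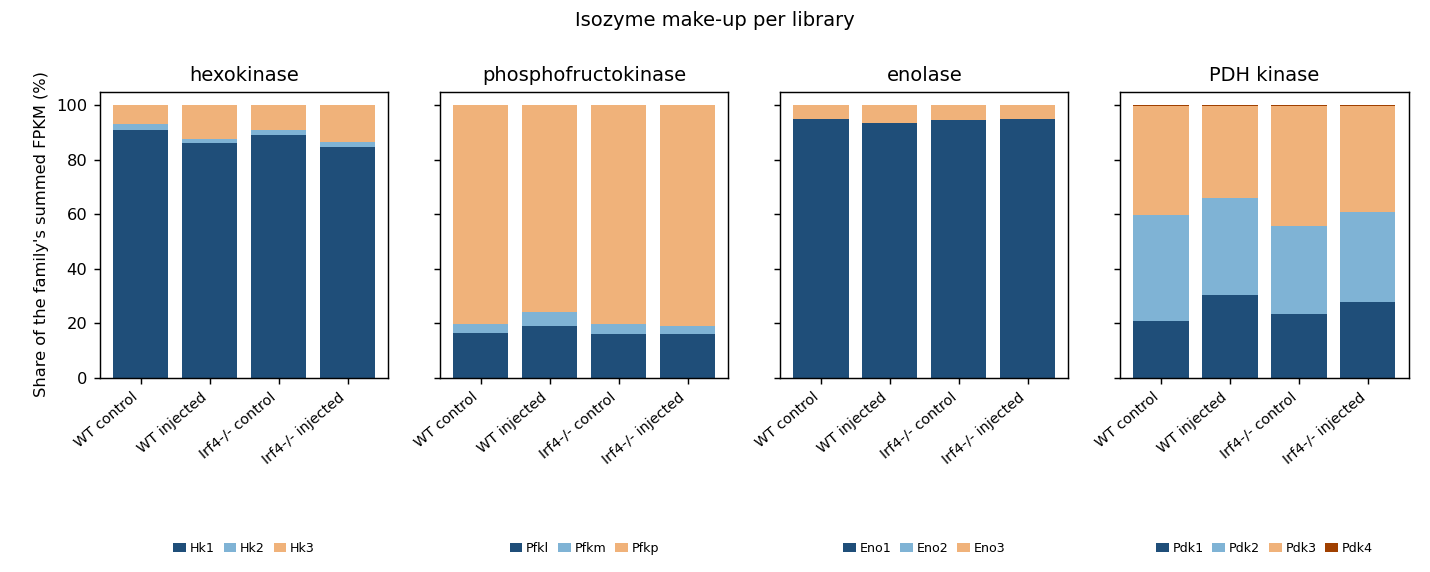
Share of each isozyme in the summed FPKM of its family, in percent, stacked per library for hexokinases, phosphofructokinases, enolases and PDH kinases. Hk1, Pfkp and Eno1 make up most of their families in all 4 libraries, while Pdk1, Pdk2 and Pdk3 share theirs and the Pdk1 part is largest in WT injected, at 30.3%.

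Across both genotypes and both treatments no gene of the pathway passed the test. The test was edgeR's quasi-likelihood test of an additive fit of genotype and injection over the 4 libraries, with Benjamini-Hochberg adjustment over 11998 genes, in which 32 members could be tested, Ldhb and Pdk4 being too low. For genotype 0 members rose and 0 fell, beside 1.22% of all tested genes that rose and 0.258% that fell. At an unadjusted p under 0.05 there were 3 of the 32 members, beside 10.4% of all tested genes, a share near that background, and DESeq2 and limma-voom called 0 members after adjustment. The 3 were the lactate transporter gene Slc16a3, with a genotype log2 difference of 0.53 (SE 0.207, edgeR adjusted p = 0.388), the mutase gene Pgam1 at 0.31 (SE 0.135, edgeR adjusted p = 0.465), and Pfkfb3, which encodes an enzyme that makes the phosphofructokinase activator fructose 2,6-bisphosphate, at -0.31 (SE 0.110, edgeR adjusted p = 0.319). For injection 0 members rose and 0 fell, beside 0.333% and 0.392% of all tested genes. At an unadjusted p under 0.05 there was 1 of the 32 members, beside 14.2% of all tested genes, and again DESeq2 and limma-voom called 0 members after adjustment. The 1 was Pdk1, with an injection log2 difference of 0.73 (SE 0.169, edgeR adjusted p = 0.0904). Its call depended on the setting: the adjusted p was 0.025 with total-count scaling, 0.0296 with upper-quartile scaling, 0.0452 with a filter of 5 CPM and 6.03e-05 with no filter, against 0.0667 with median-of-ratios scaling, 0.122 in DESeq2, 0.0808 in limma-voom and 0.51 with genotype left out. The members' median differences were 0.01 for genotype and 0.02 for injection, beside medians of -0.00 and 0.00 over all tested genes. The fit has 1 residual degree of freedom, and a response to injection that differs between the genotypes counts in it as error. Such a response makes a call less likely, so 0 calls do not show that nothing differed. The error estimate also draws on the other genes. The labels name no separate mice, so the p-values rest on the spread of these 4 libraries around an additive model, which may also be technical.

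Differences between single pairs of libraries carry no p-value, since each group has 1 library, and they compare those libraries, not the conditions. They are given as log2 ratios of CPM after scaling by trimmed mean of M values, with an exact 95% counting interval in parentheses that covers counting error only and, because PCR reads are not independent molecules, may be too narrow. Such intervals narrow as counts rise, and the shares of all genes given beside those of the members were not matched on level. Between the uninjected libraries the pathway was nearly level. The median log2 ratio of Irf4-/- control to WT control over the 29 genes was 0.03, beside -0.01 over all genes that reached 5 CPM in the pair, and the ratios ran from -0.26 for Mpc2 to 0.34 for Pfkm. Intervals lay above 0 for 8 members and below 0 for 6, beside 17.9% and 18.7% of all such genes. No member was 2-fold higher or lower, beside 0.714% and 0.0828% of genes, and 28 of the 29 stayed within 1.25-fold.

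Between the injected libraries the members lay further apart, again in both directions. The median log2 ratio of Irf4-/- injected to WT injected was -0.02, beside -0.00 over all genes, with a range from -0.59 for Eno3 to 0.75 for Slc16a3. Intervals lay above 0 for 12 members and below 0 for 9, beside 27.2% and 27.6% of genes. No member reached 2-fold, beside 1.12% higher and 0.661% lower among all genes, and 65.5% of the members stayed within 1.25-fold, against 77.1% of all genes. For injection in WT mice the median was -0.01, as over all genes, and the range ran from -0.64 for Slc16a1 to 1.09 for Pdk1. Intervals lay above 0 for 13 and below 0 for 9, beside 30.2% and 30.8% of genes, and Pdk1 alone was 2-fold higher with 0 members 2-fold lower, beside 1.11% and 0.789% of genes. For injection in Irf4-/- mice the median was 0.03, beside 0.00 over all genes, and the range was -0.30 for Pfkm to 0.36 for Pdk1. There 6 intervals lay above 0 and 2 below, beside 20.5% and 20.8% of genes, no member reached 2-fold, beside 0.134% and 0.216%, and 28 of the 29 stayed within 1.25-fold. Each library enters 2 of these 4 pairs, so the pairs are not independent of each other.

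**Figure D3:**
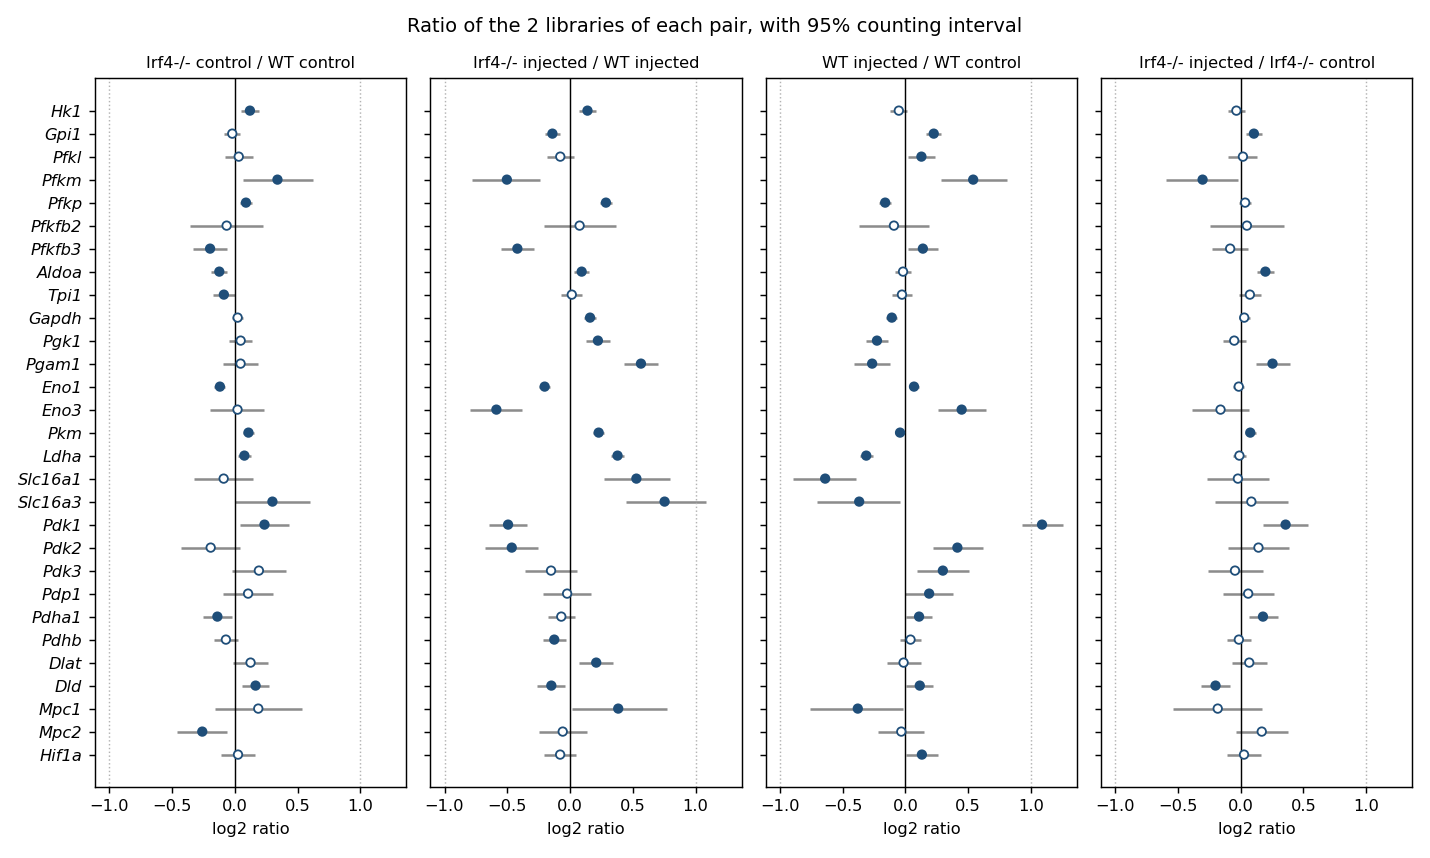
Log2 ratios of the 29 genes that reached 5 CPM in the 4 pairs of libraries, with exact 95% counting intervals as grey bars, filled points where the interval excludes 0 and dotted lines at 2-fold. Points spread most in the 2 pairs that hold WT injected, and Pdk1 in the WT pair, at 1.09, is the only point past a dotted line.

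The upper enzymes turn glucose into fructose 1,6-bisphosphate. Among their genes that reached 5 CPM, the minor isozyme gene Pfkm had the widest spread, its highest level being 1.46 times its lowest, against 1.22 times for Pfkp. Hk1 was at 180, 174, 196 and 191 CPM. Both Irf4-/- libraries lay above both WT libraries, by log2 ratios of 0.12 (0.05 to 0.19) in control and 0.14 (0.07 to 0.21) in injected mice. Pfkp was at 421, 376, 448 and 459 CPM and also had both Irf4-/- libraries above both WT libraries. Its genotype log2 ratio was 0.09 (0.04 to 0.13) in control and 0.29 (0.24 to 0.33) in injected mice. Gpi1, the isomerase between glucose 6-phosphate and fructose 6-phosphate, was at 221, 259, 218 and 235 CPM. Its injected libraries were above their controls, at 0.23 (0.17 to 0.28) in WT and 0.10 (0.04 to 0.17) in Irf4-/- mice. The liver type phosphofructokinase gene Pfkl ranged only from 69.4 to 75.8 CPM. Hk2 was at 4.96, 3.61, 4.84 and 4.88 CPM, lowest in WT injected, with a log2 ratio for injection of -0.45 (-0.92 to -0.00) in WT mice and 0.01 in Irf4-/- mice, and of 0.42 (-0.04 to 0.91) between genotypes in injected mice. Pfkm, the muscle type phosphofructokinase gene, was at 10.4, 15.1, 13.1 and 10.6 CPM, high in WT injected and low in WT control and Irf4-/- injected. Its log2 ratio for injection was 0.54 (0.28 to 0.81) in WT mice and -0.30 (-0.59 to -0.02) in Irf4-/- mice. Pfkm overlaps Senp1 on the opposite strand, which had 1891, 1648, 1386 and 1624 counts, and whether counting used strand is not given in the sources used here.

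PFKFB enzymes set the level of fructose 2,6-bisphosphate, the strongest known activator of phosphofructokinase. Pfkfb3 was the main one, with 54.9, 60.4, 47.9 and 45.2 CPM, both Irf4-/- libraries lying below both WT libraries. The genotype log2 ratio was -0.20 (-0.33 to -0.06) in control and -0.42 (-0.55 to -0.29) in injected mice. Pfkfb2 was nearly level, between 10.7 and 11.4 CPM. Pfkfb4 was low, at 2.84, 2.75, 2.14 and 3.86 CPM, highest in Irf4-/- injected. Of the aldolase and triose phosphate isomerase genes, Tpi1, the isomerase gene, was at 125, 122, 117 and 123 CPM, a highest to lowest ratio of 1.06, the smallest among the 29 genes. Aldoa was at 220, 217, 202 and 231 CPM, lowest in Irf4-/- control and highest in Irf4-/- injected, with an injection log2 ratio of 0.20 (0.13 to 0.26) in Irf4-/- mice against -0.02 (-0.08 to 0.04) in WT mice. Aldoc, the brain type aldolase, had between 1.56 and 2.51 CPM.

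For all 6 genes of the lower part, from Gapdh to Pkm, the genotypes lay further apart in injected than in control mice. This widening was not particular to them. Over all genes that reached 5 CPM in the pair, the median absolute log2 ratio was 0.10 in control and 0.16 in injected mice. The share of all genes that widened was not counted. Pgam1, which moves the phosphate of phosphoglycerate, was at 46.6, 38.8, 48.1 and 57.4 CPM. The lowest and the highest of the 4 were thus both injected libraries, with a log2 ratio of 0.56 (0.43 to 0.70) between Irf4-/- and WT injected mice and 0.05 (-0.09 to 0.18) between controls. By FPKM, Pgam1 held 82.9%, 74.3%, 86.5% and 89.6% of the phosphoglycerate mutase sum, the rest being the muscle type gene Pgam2. The muscle type enolase gene Eno3 went the other way, at 19.6, 26.8, 19.9 and 17.8 CPM, with WT injected above the other 3 libraries. Its log2 ratio of Irf4-/- to WT was -0.59 (-0.79 to -0.39) in injected and 0.02 (-0.19 to 0.24) in control mice. Eno1 was at 489, 513, 451 and 446 CPM, with both Irf4-/- libraries below both WT libraries. Pgk1, the kinase that makes the first ATP of the lower part, was at 111, 95, 115 and 111 CPM, lowest in WT injected. Gapdh, at 449, 417, 457 and 466 CPM, and Pkm, at 484, 470, 523 and 551 CPM, had both Irf4-/- libraries above both WT libraries. For Pkm the genotype log2 ratio was 0.11 (0.07 to 0.15) in control and 0.23 (0.19 to 0.27) in injected mice, and counts per gene cannot separate its M1 and M2 splice forms. Processed copies can share reads with these genes: the named copies of Pgam1, Pgk1 and Ldha had at most 11 counts in a library, and Eno1b, a near copy of Eno1, had 9, 17, 23 and 20. Gapdh overlaps Iffo1 on the opposite strand, which had between 1490 and 2389 counts.

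Lactate formation and export genes were lowest in WT injected, Ldhb apart, which was too low to order. Summed over Ldha, Ldhb, Slc16a1 and Slc16a3 the level was 375, 299, 395 and 393 CPM. Ldha (ENSMUSG00000063229, chromosome 7, 46841475 to 46855627 in GRCm38), whose protein reduces pyruvate to lactate, was at 348, 280, 367 and 364 CPM. Its log2 ratio for injection was -0.31 (-0.36 to -0.26) in WT mice and -0.01 (-0.06 to 0.04) in Irf4-/- mice, and between genotypes it was 0.38 (0.33 to 0.43) in injected and 0.08 (0.03 to 0.13) in control mice. Slc16a1, the gene of the monocarboxylate transporter MCT1, was at 17.4, 11.2, 16.4 and 16.1 CPM, with WT injected below the others by more than the counting intervals of the levels, 9.69 to 12.8 CPM against a lowest bound of 14.4 CPM elsewhere. The injection ratio was -0.64 (-0.90 to -0.39) in WT mice and -0.02 (-0.27 to 0.22) in Irf4-/- mice. Slc16a3, which encodes the lactate exporter MCT4, was at 9.22, 7.12, 11.4 and 12.1 CPM, both Irf4-/- libraries above both WT libraries, with genotype ratios of 0.30 (0.00 to 0.60) in control and 0.75 (0.45 to 1.08) in injected mice. Ldha, Slc16a1 and Slc16a3 thus all had an interval below 0 for injection in WT mice, beside 30.8% of all genes, and above 0 for genotype in injected mice, beside 27.2%. Bsg, the chaperone that brings these transporters to the cell surface and not itself a member, was at 182, 139, 154 and 172 CPM, also lowest in WT injected. None of these genes passed the additive test, and the macrophage, erythroid and B cell marker sums also differed between WT injected and the other libraries, with 263 CPM of B cell markers there against 300 to 335 elsewhere. The part of other cells in these differences was not tested.

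PDH kinase genes were highest in WT injected, Pdk4 apart, which was too low to order. With the phosphatase gene Pdp1 they summed to 80.6, 119, 86.8 and 96.2 CPM. Pdk1 (ENSMUSG00000006494, chromosome 2, 71873224 to 71903858 in GRCm38), the gene of a kinase that inactivates PDH and a known target of the hypoxia-inducible factor HIF-1, was at 22.6, 48.2, 26.6 and 34.2 CPM, and its highest level was 2.13 times its lowest, the widest spread among the 29 genes. The counting intervals of these levels, 20.6 to 24.7, 45.0 to 51.4, 24.2 to 29.3 and 31.6 to 36.9 CPM, overlapped only between the 2 controls. Both injected libraries lay above both controls, by a log2 ratio of 1.09 (0.93 to 1.26) in WT and 0.36 (0.18 to 0.54) in Irf4-/- mice. Between genotypes the ratio was 0.24 (0.05 to 0.43) in control and -0.49 (-0.64 to -0.35) in injected mice. Pdk2, the most widely expressed PDH kinase gene, was at 18.4, 24.5, 16.1 and 17.8 CPM, with ratios for injection of 0.41 (0.22 to 0.62) in WT and 0.14 (-0.10 to 0.38) in Irf4-/- mice. Pdk3, on the X chromosome, was at 17.9, 22.1, 20.5 and 19.8 CPM, and Pdp1, whose protein reactivates PDH, at 21.6, 24.7, 23.3 and 24.3 CPM. For injection in WT mice all 4 of Pdk1, Pdk2, Pdk3 and Pdp1 had an interval above 0, beside 30.2% of all genes, and in Irf4-/- mice 1 of the 4, Pdk1, did, beside 20.5%. The interval of Pdp1 only just excluded 0 in WT mice, at 0.19 (6.57e-05 to 0.38), with 458 counts in each WT library. Over the same pair of WT libraries the monocyte and macrophage marker sum went from 38.7 to 89.0 CPM. Of those 10 markers Vcam1 and C1qc rose and Lyz2 fell with injection in the additive edgeR test, and the part of such cells in the Pdk1 difference was not tested.

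**Figure D4:**
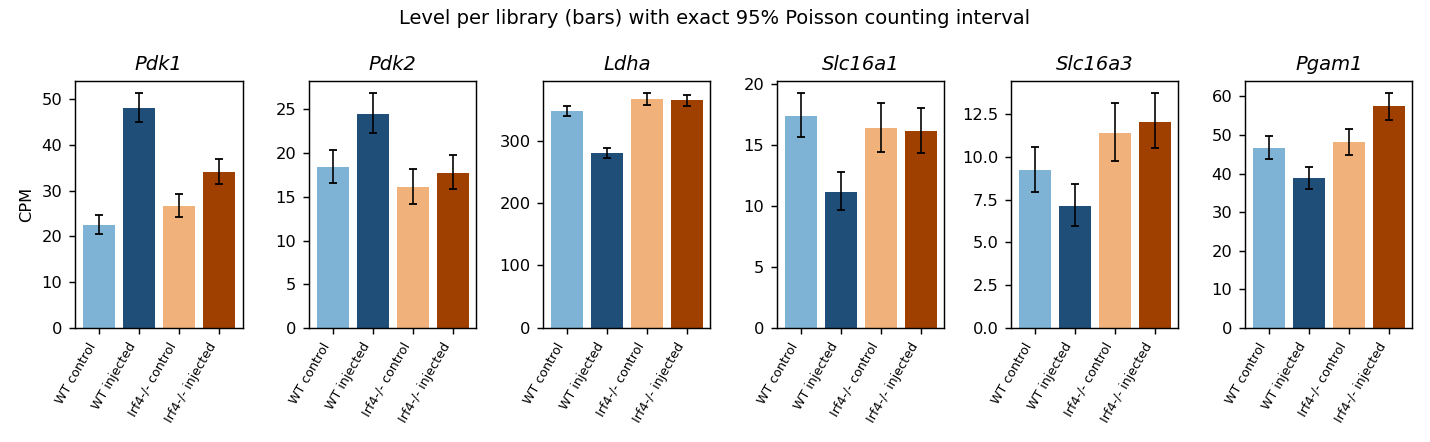
Level of Pdk1, Pdk2, Ldha, Slc16a1, Slc16a3 and Pgam1 in CPM as bars, 1 per library, with exact 95% Poisson counting intervals that do not cover variation between mice. WT injected is the highest library for Pdk1, at 48.2 CPM, and Pdk2, and the lowest for the other 4 genes.

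Promoter windows of Ldha, Slc16a1, Pdk1 and Pdk2 are shown because these lactate and PDH kinase genes had their lowest and highest levels in WT injected, and they were chosen after their values were seen. Each line is the 250 bases before the RefSeq start nearest to that of the gene's principal GENCODE transcript, on the gene's strand in build GRCm38.p6, with the searched letters in capitals. The Ldha window is chr7:46845554-46845803 on the plus strand, that of Slc16a1 chr3:104638414-104638663 on the plus strand, that of Pdk1 chr2:71872974-71873223 on the plus strand and that of Pdk2 chr11:95041372-95041621 on the minus strand.
Ldha: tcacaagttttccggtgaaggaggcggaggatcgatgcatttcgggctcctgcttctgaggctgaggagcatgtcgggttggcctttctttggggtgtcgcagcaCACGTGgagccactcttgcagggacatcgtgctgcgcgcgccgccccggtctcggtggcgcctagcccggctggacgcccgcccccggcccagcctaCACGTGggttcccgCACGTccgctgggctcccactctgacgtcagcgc
Slc16a1: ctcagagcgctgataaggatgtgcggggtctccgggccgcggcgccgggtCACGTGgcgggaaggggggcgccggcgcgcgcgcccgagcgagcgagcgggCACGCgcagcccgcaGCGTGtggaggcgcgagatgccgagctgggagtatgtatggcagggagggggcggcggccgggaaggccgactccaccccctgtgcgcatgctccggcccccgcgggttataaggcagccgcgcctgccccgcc
Pdk1: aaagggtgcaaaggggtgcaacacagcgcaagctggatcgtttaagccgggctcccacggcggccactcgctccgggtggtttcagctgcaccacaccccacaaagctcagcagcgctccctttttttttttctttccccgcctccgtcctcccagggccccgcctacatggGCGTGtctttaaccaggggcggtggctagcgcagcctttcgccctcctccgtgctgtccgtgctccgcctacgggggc
Pdk2: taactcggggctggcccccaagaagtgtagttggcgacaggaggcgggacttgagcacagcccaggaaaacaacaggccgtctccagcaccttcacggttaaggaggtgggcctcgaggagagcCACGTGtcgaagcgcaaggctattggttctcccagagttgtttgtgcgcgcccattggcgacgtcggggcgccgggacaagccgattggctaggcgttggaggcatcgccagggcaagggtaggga
Searched on both strands were ACGTG and GCGTG, the core letters to which HIF binds, CACGTG, the E-box that MYC and related factors bind, and GTAAACA, a FOXO motif. CACGTG holds ACGTG on each strand, so each E-box also counts for ACGTG, and CACGT and CACGC in capitals are matches read from the other strand. Ldha had 2 E-boxes and 1 further ACGTG match, Slc16a1 had 1 E-box and 2 GCGTG matches, Pdk1 had 1 GCGTG match, and Pdk2 had 1 E-box. Over the 33 members in the promoter table, which lacks Pdp1, ACGTG or GCGTG was found in 26 windows, against 38.6% of all 32851 windows of this length, and CACGTG in 6, against 6.02%. ACGTG was found in 13 member windows, against 16.6% of all windows, GCGTG in 20, against 28.2%, and GTAAACA in 0, against 3.17%. The windows with an E-box were those of Pfkfb2, Pfkfb3, Ldha, Slc16a1, Pdk2 and Hif1a, genes that did not share a direction in any pair. Windows were not matched on base composition, and a match is a description of the letters, not a binding site.

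The PDH complex itself was nearly level. Its 4 genes summed to 295, 310, 296 and 296 CPM. Pdha1, the E1 subunit gene that carries the sites the kinases phosphorylate, was at 74.5, 80.3, 67.7 and 76.5 CPM, with both injected libraries above both controls. Pdhb, the other E1 subunit gene, ranged from 99.8 to 109 CPM. Dlat, the E2 acetyltransferase gene, was at 45.4, 45.0, 49.6 and 52.0 CPM, with both Irf4-/- libraries above both WT libraries. Dld, the E3 subunit gene shared with other dehydrogenase complexes, was at 69.7, 75.5, 78.2 and 68.1 CPM, and its log2 ratio for injection was 0.11 (0.01 to 0.22) in WT and -0.20 (-0.31 to -0.09) in Irf4-/- mice. The carrier that admits pyruvate to mitochondria is a pair of proteins. Mpc1 was at 7.33, 5.61, 8.36 and 7.35 CPM, lowest in WT injected, and Mpc2 at 25.4, 24.9, 21.2 and 23.9 CPM, lowest in Irf4-/- control. The pseudogene Mpc1-ps had 28, 49, 35 and 31 counts beside 155, 104, 133 and 137 for Mpc1, so reads shared between them could shift the Mpc1 level. Hif1a, the gene of the oxygen-regulated subunit of HIF-1, which is controlled mainly through protein stability, had 48.9, 53.5, 49.8 and 50.7 CPM, the highest level being 1.10 times the lowest.

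The order of the 4 libraries was compared over the 29 genes, of which some fit more than 1 pattern. Both Irf4-/- libraries lay above both WT libraries for 9 of the 29 genes, beside 16.5% of all genes, and below for 5, beside 16.9%. Those above were Hk1, Pfkp, Gapdh, Pgam1, Pkm, Ldha, Slc16a3, Dlat and Mpc1, and those below Pfkfb3, Eno1, Pdk2, Pdhb and Mpc2. Both injected libraries lay above both controls for 6, Gpi1, Pfkl, Pdk1, Pdp1, Pdha1 and Hif1a, beside 20.9% of genes, and below for 2, Pgk1 and Slc16a1, beside 22.7%. WT injected was the highest library for 13 members and the lowest for 12, beside the 34.1% and 34.4% of genes given above. WT control was highest for 4 and lowest for 6 members, beside 23.7% and 21.2% of genes. Irf4-/- control was highest for 5 and lowest for 6, beside 21.5% and 22.8%, and Irf4-/- injected highest for 7 and lowest for 5, beside 20.7% and 21.6%. The median log2 range over the 4 libraries was 0.25 for the members, beside 0.29 for all genes. Without WT injected, 2 of the 4 pairs remain, those between the controls and between the Irf4-/- libraries, and in both of them 28 of the 29 members lay within 1.25-fold, as did 90.1% and 87.8% of all genes.

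Log2 ratios for injection had opposite signs in the genotypes, beyond counting error, for 4 members. Intervals on opposite sides of 0 were found for Pfkm, Pgam1, Pkm and Dld, 13.8% of the 29 genes, beside 6.62% of all genes. Highly expressed genes have narrow intervals, so Pkm was counted with log2 ratios of only -0.04 in WT and 0.08 in Irf4-/- mice. The shares here and below were not matched on level. For the genotype ratio in control and injected mice the intervals were opposite for Pfkm, Aldoa, Pdk1 and Dld, also 13.8%, beside 7.77% of all genes. The difference of the injection log2 ratios, Irf4-/- minus WT, was -0.84 for Pfkm, -0.73 for Pdk1, -0.61 for Eno3, 0.62 for Slc16a1 and 0.52 for Pgam1, and its median over the 29 genes was 0.07. With 1 library per group this difference has no test.

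**Figure D5:**
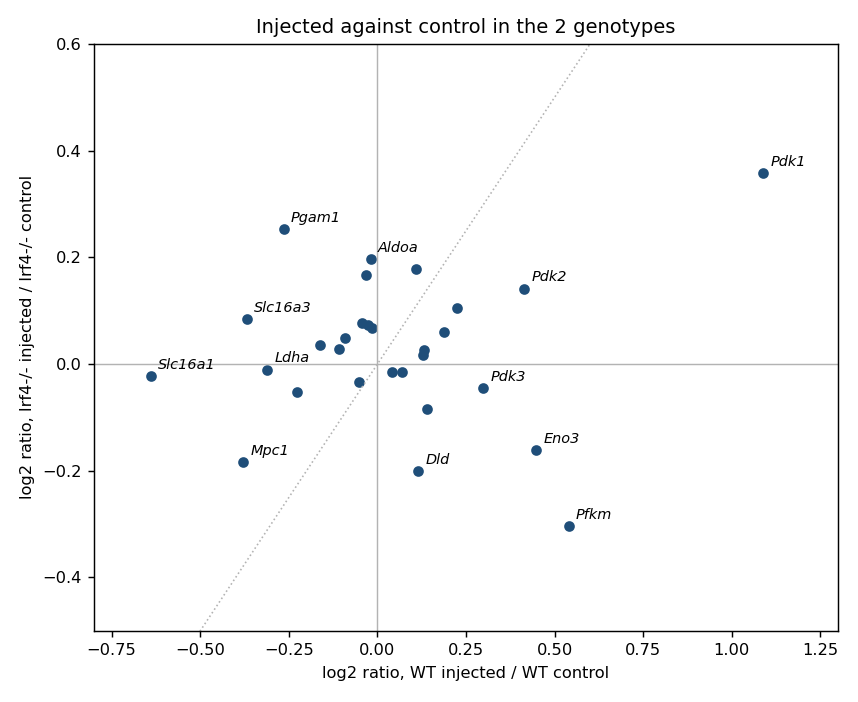
Log2 ratio of injected to control in WT mice on the horizontal axis and in Irf4-/- mice on the vertical axis, 1 point for each of the 29 genes that reached 5 CPM, the axes having different scales and the dotted line marking equal ratios. Pdk1 is furthest right at 1.09 and 0.36, Slc16a1 and Ldha lie to the left near 0 on the vertical axis, and Pfkm and Pgam1 lie in opposite quadrants.

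Of the glucose transporter genes, which stand before the pathway, Slc2a1, Slc2a6 and Slc2a8 were higher in the injected library of either genotype. In edgeR, DESeq2 and limma-voom 0 of the 4 tested passed for genotype or injection, and in edgeR 3 had an unadjusted p under 0.05 for injection and 1 for genotype, beside 14.2% and 10.4% of all tested genes. Slc2a1, the gene of the main glucose transporter GLUT1, was at 57.7, 73.7, 53.7 and 66.9 CPM, with injection ratios of 0.35 (0.24 to 0.47) in WT and 0.32 (0.19 to 0.45) in Irf4-/- mice. Slc2a6, the gene of a lysosomal hexose transporter, was at 16.6, 27.6, 17.5 and 27.1 CPM, with both injected libraries above both controls and an edgeR adjusted p for injection of 0.0637. Slc2a8 was at 10.3, 23.9, 7.60 and 10.5 CPM, highest in WT injected, and Slc2a3, the gene of GLUT3, at 121, 129, 144 and 125 CPM, highest in Irf4-/- control. Slc2a4 had 1 count in all. Of the 14 tested among 20 other glycolysis and PDH genes, 0 passed for genotype or injection with any of the 3 tools, and 3 had an unadjusted edgeR p under 0.05 for each effect, beside the same 10.4% and 14.2%. Among them the hexokinase gene Hk3 was at 10.3, 19.0, 15.0 and 23.1 CPM, with an edgeR adjusted p for injection of 0.0733.

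In pathways that branch from glycolysis 0 genes passed for genotype or injection with edgeR, DESeq2 or limma-voom. Tested were 8 genes of the pentose phosphate pathway, 10 of glycogen and galactose use, 9 of the NADH shuttles, 17 of the citric acid cycle and 5 of citrate export. An unadjusted edgeR p under 0.05 was found for 1 glycogen and 1 citrate export gene for genotype, and for 2 glycogen genes, 1 shuttle gene and 1 citrate export gene for injection. Beside them stand 10.4% of all tested genes for genotype and 14.2% for injection. The pentose phosphate list had a median log2 ratio of -0.16 for injection in WT mice, with 4 of 8 intervals below 0, beside 30.8% of all genes, and of -0.00 in Irf4-/- mice. Its transaldolase gene Taldo1 was at 144, 118, 147 and 142 CPM and its epimerase gene Rpe at 39.7, 30.0, 39.5 and 38.5, both lowest in WT injected as Ldha was. Pygl, a glycogen phosphorylase gene, was at 7.52, 8.90, 4.78 and 2.41 CPM, both Irf4-/- libraries below both WT libraries, with an edgeR adjusted p for genotype of 0.114. Citric acid cycle genes had medians between -0.05 and 0.04 in the 4 pairs.

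HIF and FOXO factors are known to regulate PDH kinase genes in other settings. Lists of genes known to respond to them had members on both sides of 0 in each pair. Between genotypes in injected mice, 4 of 12 FOXO target intervals lay above 0 and 8 below. For HIF targets outside glycolysis it was 2 of 12 and 6, beside 27.2% and 27.6% of all genes. Summed FOXO targets were at 3278, 4357, 3363 and 3444 CPM and HIF targets at 775, 925, 831 and 795, both highest in WT injected. The higher FOXO sum there rests on Txnip, whose levels are given below, and not on the list as a whole. For injection in WT mice the median log2 ratio of the FOXO targets was 0.05, with 6 of 12 intervals above 0 and 4 below. For the HIF targets it was 0.11, with 4 of 12 above and 3 below, beside 30.2% and 30.8% of all genes. The part of either factor in the PDH kinase levels was not tested. Of 13 tested HIF target genes outside glycolysis, 1 rose and 0 fell with genotype and 0 changed with injection, with the same counts in DESeq2 and limma-voom. The one that rose was Bhlhe40, a transcriptional repressor gene, at 147, 179, 209 and 244 CPM, by 0.48 (SE 0.0990, edgeR adjusted p = 0.0417), and with injection left out of the fit its adjusted p was 0.549. Ddit4, an inhibitor of mTORC1 and a gene of the same list, was at 202, 291, 209 and 173 CPM, highest in WT injected like Pdk1. Of the 7 tested HIF regulators 0 passed with any of the 3 tools and 0 had an unadjusted edgeR p under 0.05. Of 12 FOXO target genes 0 rose and 1 fell with genotype, and 1 rose and 0 fell with injection. Pik3ip1, an inhibitor of phosphoinositide 3-kinase, fell by 3.87 with genotype (SE 0.401, edgeR adjusted p = 0.000764), from 24.1 and 120 CPM in WT control and injected to 4.21 and 3.97 in the Irf4-/- libraries. Il7r, the interleukin 7 receptor gene, rose by 1.44 with injection (SE 0.127, edgeR adjusted p = 0.000559), at 61.5, 200, 63.8 and 144 CPM. With the other term left out of the fit their adjusted p-values were 0.129 and 0.157. Txnip, whose protein limits glucose uptake, did not pass, but was at 554, 1666, 616 and 479 CPM, WT injected lying above the other 3, and Irs2, an insulin receptor substrate gene, was at 16.4, 35.4, 15.6 and 13.2 CPM with the same library on top. Txnip had a log2 ratio for injection of 1.59 (1.56 to 1.62) in WT mice and -0.36 (-0.40 to -0.32) in Irf4-/- mice.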

How the data were processed

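The values deposited by the authors are unnormalized read counts and FPKM for each gene. TopHat, edgeR and build mm10 are named in the submitters' processing notes, with versions, counting tool, annotation and strand use not given in the sources used here. Dividing a deposited count by its FPKM and its library's total gave a length within 2.58e-07 bp of a whole number for all 72455 values with a count. Identifiers were matched to GENCODE symbols of GRCm38, the assembly that mm10 denotes, for 34490 of 35275 identifiers. The sample titles gave the groups, treated being the injected state named in the series title.

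Trimmed mean of M values scaling was done in edgeR 4.0.16 on R 4.3.3 over genes that reached 1 CPM in 2 or more libraries, and these genes were tested with glmQLFit and glmQLFTest (two-sided, prior degrees of freedom 9.62, common dispersion 0.00996), with Benjamini-Hochberg adjustment at 0.05. Dividing the absolute log2 difference by the root of F gave the standard error. The words rose, fell and changed refer to this test. Pairwise log2 ratios used a prior count of 2, and their 95% counting intervals are exact (Clopper-Pearson). A 2-fold difference was counted at a mean of at least 5 CPM with an interval excluding 0. At these depths a count of 0 allows up to 0.142 to 0.188 CPM (3 counts).

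Every member is named. Other genes are named where they passed the additive test or were among the 3 largest log2 ratios of their list in a pair, but not all of those are printed, and a few were picked after their values were seen. The members, the 10 supporting lists and the 7 marker lists were chosen with earlier results of these data known. Alternatives were median-of-ratios, upper-quartile and total-count scaling, no filter or a 5 CPM filter, DESeq2 1.42.0, limma-voom in limma 3.58.1, an adjusted p under 0.1, 1 term left out, other folds, minimum levels and prior counts, and FPKM with a pseudocount of 0.1. Scaling over unfiltered genes was added after seeing the data.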

Additional observations from a re-analysis of the deposited data

Results flagged for a closer look

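The members named here reached 5 CPM and had counting intervals on opposite sides of 0 in the 2 pairs of a contrast, so that the single library pairs moved in opposite ways. With 1 library per group the difference was not tested. For injection, given as the Irf4-/- log2 ratio minus the WT ratio, the difference was -0.84 for Pfkm (0.54 in WT and -0.30 in Irf4-/- mice), 0.52 for Pgam1 (-0.26 and 0.25), 0.12 for Pkm (-0.04 and 0.08) and -0.32 for Dld (0.11 and -0.20). For genotype, given as the ratio in injected mice minus that in control mice, it was -0.84 for Pfkm (0.34 in control and -0.50 in injected mice), 0.22 for Aldoa (-0.12 and 0.09), -0.73 for Pdk1 (0.24 and -0.49) and -0.32 for Dld (0.17 and -0.15). Both differences come from the same 4 libraries and are the same number for a gene.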

How the results depend on the processing

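No paired analysis was possible because each group has 1 library and the labels carry no replicate numbers, and no library could be left out of the additive fit, which would then have no residual degree of freedom. Genotype calls among members stayed at 0 under each of the 10 alternatives. Injection calls among members were 0 in the reported fit and 1, Pdk1, under total-count scaling, upper-quartile scaling, no low-count filter, a filter of 5 CPM, scaling over unfiltered genes (added after seeing the data) and an adjusted p under 0.1. Over the fits run at 0.05 the adjusted p of Pdk1 (edgeR, DESeq2 and limma-voom) ran from 6.03e-05 to 0.51 and its log2 difference from 0.72 to 0.76. Counts over all genes moved more: for genotype from 146 rising and 31 falling to 319 and 163 with no filter and to 3 and 2 with injection left out, and for injection from 40 and 47 to 305 and 299, and to 0 and 0 with genotype left out. At 1.5-fold 2 members, Slc16a3 above and Eno3 below, were counted for genotype in injected mice against 0 at 2-fold, and 2, Pdk1 above and Slc16a1 below, for injection in WT mice against 1. For injection in Irf4-/- mice 1 interval lay below 0 at a mean of at least 20 CPM, against 2. The members' median ratios in the 4 pairs stayed between -0.06 and 0.04 under all alternatives, some changing sign around 0, and scaling moved the median of all genes by less than 0.1. Depth limits Ldhb, Pdk4, Aldoc and Pfkfb4, and the single library per group limits every comparison.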
